A study of Mus musculus with 8 samples.

Results

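The 10 genes described here encode surface proteins that are used to recognise or sort mesenchymal cells. The set was built around *Thy1*, whose transcript is lower in cardiac fibroblasts of mice in which the lamin A/C gene *Lmna* was deleted in fibroblasts. The question put to the data was whether the lower *Thy1* level was shared by the other surface markers. The members were taken by gene symbol from the count files, and all 10 were found among the 18957 genes listed and among the 13036 genes that passed the filter on low counts. The set was chosen by the difference in *Thy1* counts between the 2 genotypes, with the other members added for their use as markers. The *Thy1* difference is therefore given as a description with no test, and the tests concern the other 9 genes. Those 9 were also chosen with earlier results of these data known, so their counts beside all genes are not those of a blind set. The set holds *Thy1*, the lymphocyte antigen 6 genes *Ly6a*, *Ly6c1* and *Ly6e*, the sialomucin *Cd34*, the co-receptor *Eng*, the ectoenzyme *Nt5e*, the adhesion molecule *Mcam*, the C-type lectin-like protein gene *Cd248* and the tetraspanin *Cd9*.

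The study asked how loss of lamin A/C in fibroblasts affects the heart. The *Lmna* gene, whose exon 2 is flanked by loxP sites, was deleted with *Pdgfra-Cre*, a bacterial artificial chromosome transgene that is active in cells using the *Pdgfra* promoter. RNA was measured in PDGFRA-positive, lineage-negative, DAPI-negative cells sorted by flow cytometry from collagenase-digested ventricles of C57BL/6 (mixed) mice aged 3 to 4 weeks. There were 4 WT libraries, from littermates with wild-type alleles only, and 4 Pdgfra-Cre:LmnaF/F libraries, called LmnaF/F libraries below. Libraries of mice with the Cre transgene alone were not analysed here, so the presence of the transgene and the deletion of *Lmna* cannot be told apart. The promoter is also known to be used by mesenchymal cells outside the heart and by some precursors of cardiac myocytes, so the deletion is not restricted to the sorted cells. The study still detected LMNA protein in a part of the PDGFRA-positive cells of LmnaF/F mice, so the sorted cells can include cells that kept it. The labels number the libraries and do not name the mouse behind each, and p-values measure the spread between these libraries.

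Thy-1 is a small immunoglobulin-like protein that is held in the outer leaflet of the membrane by a glycosylphosphatidylinositol (GPI) anchor. It is found on thymocytes, neurons and many fibroblasts, binds integrins, and is a usual marker for sorting fibroblasts. The Ly6 proteins and CD73, the product of *Nt5e*, are GPI-anchored as well, and Ly6a is known as Sca-1, a marker of mouse progenitor cells and of fibroblasts around vessels. CD34, endoglin and MCAM are shared between mesenchymal and endothelial cells, endosialin (*Cd248*) marks fibroblasts and pericytes, and CD9 organises other membrane proteins into tetraspanin domains. THY1, CD73 and endoglin together belong to the usual definition of cultured mesenchymal stromal cells.

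The first 300 bases of 3 coding sequences are shown, from the start codon, *Thy1* as the gene the set is built around and *Ly6c1* with its close copy *Ly6c2* because reads of near-identical genes can be assigned to the wrong copy. They were read from the annotated transcripts ending in 201 of GENCODE M21 on mm10, in the sense direction, and capitals mark the 7 of 9 positions within this stretch at which *Ly6c1* and *Ly6c2* differ.
Thy1: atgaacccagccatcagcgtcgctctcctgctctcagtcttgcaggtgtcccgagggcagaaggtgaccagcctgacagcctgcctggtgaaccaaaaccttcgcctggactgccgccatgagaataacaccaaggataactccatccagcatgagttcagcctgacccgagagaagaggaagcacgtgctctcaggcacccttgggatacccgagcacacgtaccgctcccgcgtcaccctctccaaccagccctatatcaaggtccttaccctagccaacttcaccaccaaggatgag
Ly6c1: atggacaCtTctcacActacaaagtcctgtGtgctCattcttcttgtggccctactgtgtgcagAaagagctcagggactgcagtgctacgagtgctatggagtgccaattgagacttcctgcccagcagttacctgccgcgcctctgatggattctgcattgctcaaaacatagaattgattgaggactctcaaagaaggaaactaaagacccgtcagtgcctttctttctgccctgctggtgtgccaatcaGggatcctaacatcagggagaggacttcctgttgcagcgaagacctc
Ly6c2: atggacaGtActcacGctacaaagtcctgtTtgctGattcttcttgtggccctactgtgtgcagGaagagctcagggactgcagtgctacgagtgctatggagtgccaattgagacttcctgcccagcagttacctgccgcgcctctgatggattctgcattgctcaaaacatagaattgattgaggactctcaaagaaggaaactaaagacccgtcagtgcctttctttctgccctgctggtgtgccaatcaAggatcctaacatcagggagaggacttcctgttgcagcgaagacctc
The coding sequences of *Ly6c1* and *Ly6c2* were each 396 bases long and 97.7% identical. That of *Ly6a* was 82.0% identical to *Ly6c1*, whereas *Ly6e* shared 52.2% of aligned positions with *Ly6a*. Of the 1706 windows of 150 bases in the *Ly6c1* transcripts, 39 (2.29%) also occurred in *Ly6c2*, and no window of the other 9 genes occurred in another gene. The *Ly6c2* counts were 0, 1, 0 and 2 in WT replicates 1 to 4 and 0, 0, 0 and 9 in the LmnaF/F replicates, against 205 to 1050 counts for *Ly6c1*.

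On mm10 the *Thy1* gene lies on chromosome 9 at 44043384 to 44048579 on the plus strand, and *Mcam* lies on the same strand at 44134469 to 44142727, 91.1 kb away from start to start. *Nt5e* is on chromosome 9 as well, at 88327197 to 88372092. The Ly6 genes form a cluster on chromosome 15, with *Ly6e* at 74955051 to 74959905 on the plus strand, *Ly6a* at 74994877 to 74998031 and *Ly6c1* at 75044018 to 75048830, the last 2 on the minus strand. *Cd34* lies on chromosome 1 at 194938819 to 194961279, *Eng* on chromosome 2 at 32646595 to 32682669, *Cd248* on chromosome 19 at 5068078 to 5070682 and *Cd9* on chromosome 6 at 125460266 to 125494791. *Eng* overlaps the protein-coding gene *Fpgs* on the opposite strand. The libraries were made with a strand-specific kit, and the strand setting used for counting is not given in the sources used here.

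Lmna, the targeted gene, was read first as a check of the labels. Its level was 330, 273, 481 and 373 CPM in the WT libraries, numbered 1 to 4, and 126, 97.1, 130 and 90.1 CPM in LmnaF/F replicates 1 to 4. CPM are counts scaled to a common library size with TMM factors. Every LmnaF/F library lay below every WT library, with a log2 fold change of -1.72 ± 0.22 (SE, adjusted p = 0.00492, edgeR quasi-likelihood test with Benjamini-Hochberg adjustment, as throughout). *Pdgfra*, the gene of the sorting antigen, was at 1748 ± 351 CPM in WT and 2154 ± 433 CPM in LmnaF/F libraries (SD, n = 4 each), with an adjusted p of 0.666. Of 12 fibroblast identity genes, none passed the test in edgeR, DESeq2 or limma-voom, beside 0.407%, 2.58% and 0.967% of all genes. None had an unadjusted p under 0.05 in edgeR, beside 11.9%. For 1 of them, *Ddr2*, every LmnaF/F library lay below every WT library, beside 3.97% of all genes. Their median log2 fold change was -0.13 beside 0.02 over all genes tested.

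Total counts ranged from 2080555 to 12502949. WT replicate 2 was the shallowest library, where 3 counts correspond to 1.51 CPM, against 0.249 to 0.478 CPM in the other 7. Pdgfra-Cre:LmnaF/F replicate 4 stood apart in cardiomyocyte markers, with a summed level of 5693 CPM for 8 genes against 300 to 887 in the other 3 libraries of its genotype and 737 to 1023 in WT. It also held the highest summed level of 8 myeloid markers, 449 CPM against 45.1 to 186 in the other 7 libraries. Across the table, 53 genes (0.407%) passed an adjusted p of 0.05, 22 (0.169%) of them higher and 31 (0.238%) lower in LmnaF/F libraries.

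In WT fibroblasts the members covered a wide range of levels. Levels between genes are compared as CPM per kb of annotated exon, on which scale the *Cd34* median was 430 with a range of 338 to 465 over the 4 libraries. *Ly6a* followed with a median of 227, *Cd248* with 157, *Ly6e* with 88.1 and *Eng* with 82.6 CPM per kb. *Thy1* was the sixth of the 10 at 56.5 CPM per kb, with a range of 44.2 to 102, next to *Ly6c1* at 55.2 and *Cd9* at 37.3. *Mcam*, at 5.59, and *Nt5e*, at 4.18 CPM per kb, were the least abundant. Neighbours in this order overlapped in their ranges at every step except between *Cd9* and *Mcam*. Genes further apart could be separate, since the lowest *Cd34* library, at 338, lay above the highest *Cd248* library, at 242, and the lowest *Cd248* library, at 113, above the highest *Thy1* library, at 102 CPM per kb.

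**Figure D1:**
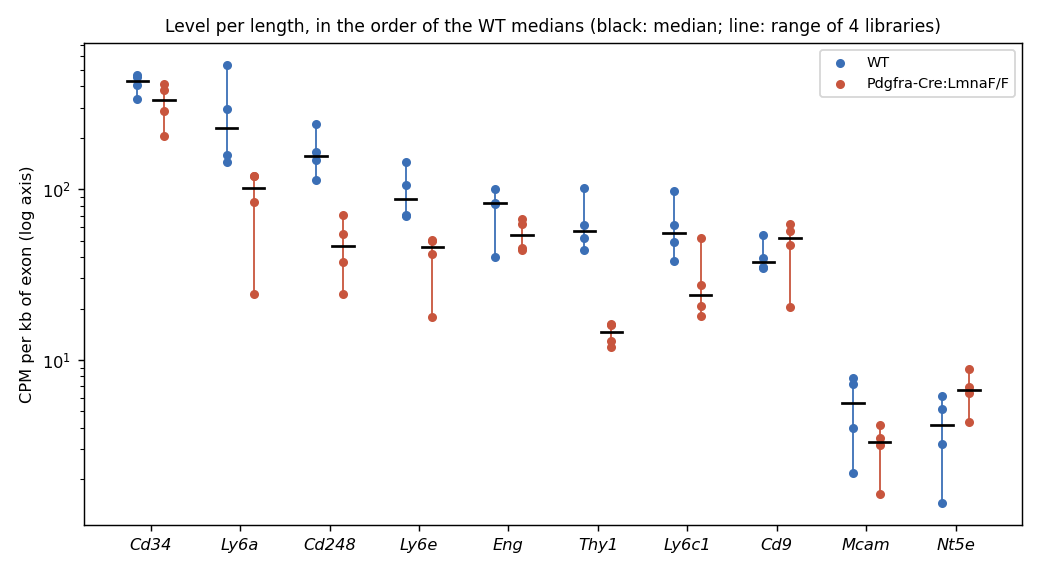
Level of each surface marker as CPM per kb of exon on a log axis, with 1 point per library, a line over the range of the 4 libraries and a black bar at the median, in blue for WT and red for Pdgfra-Cre:LmnaF/F. Genes stand in the order of their WT medians, from Cd34 at 430 to Nt5e at 4.18, and Thy1 moves from the sixth place in WT to the eighth in LmnaF/F libraries.

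In LmnaF/F libraries the same scale put *Cd34* first again, with a median of 335 CPM per kb, and *Ly6a* second with 102. *Eng* and *Cd9* came next at 54.0 and 52.0 CPM per kb. *Cd248* was then at 46.2, and *Thy1* eighth at 14.5 CPM per kb. Bulk libraries do not tell fewer cells with a transcript apart from less of it per cell, which holds for every level below.

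*Thy1* had the lowest log2 fold change of the 10 genes and the smallest relative spread in the LmnaF/F libraries. It was at 132, 304, 184 and 155 CPM in WT and at 48.1, 48.3, 38.7 and 35.5 CPM in LmnaF/F replicates 1 to 4. The highest LmnaF/F library thus lay below the lowest WT library, and the WT maximum came from the shallow replicate 2. The LmnaF/F mean of 42.6 ± 6.56 CPM was 22.0% of the WT mean of 193.8 ± 76.5 CPM (SD, n = 4 each). This is a log2 fold change of -2.18 ± 0.26 (SE). Without WT replicate 2 it was -1.88, and without LmnaF/F replicate 4 it was -2.10.

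**Figure D2:**
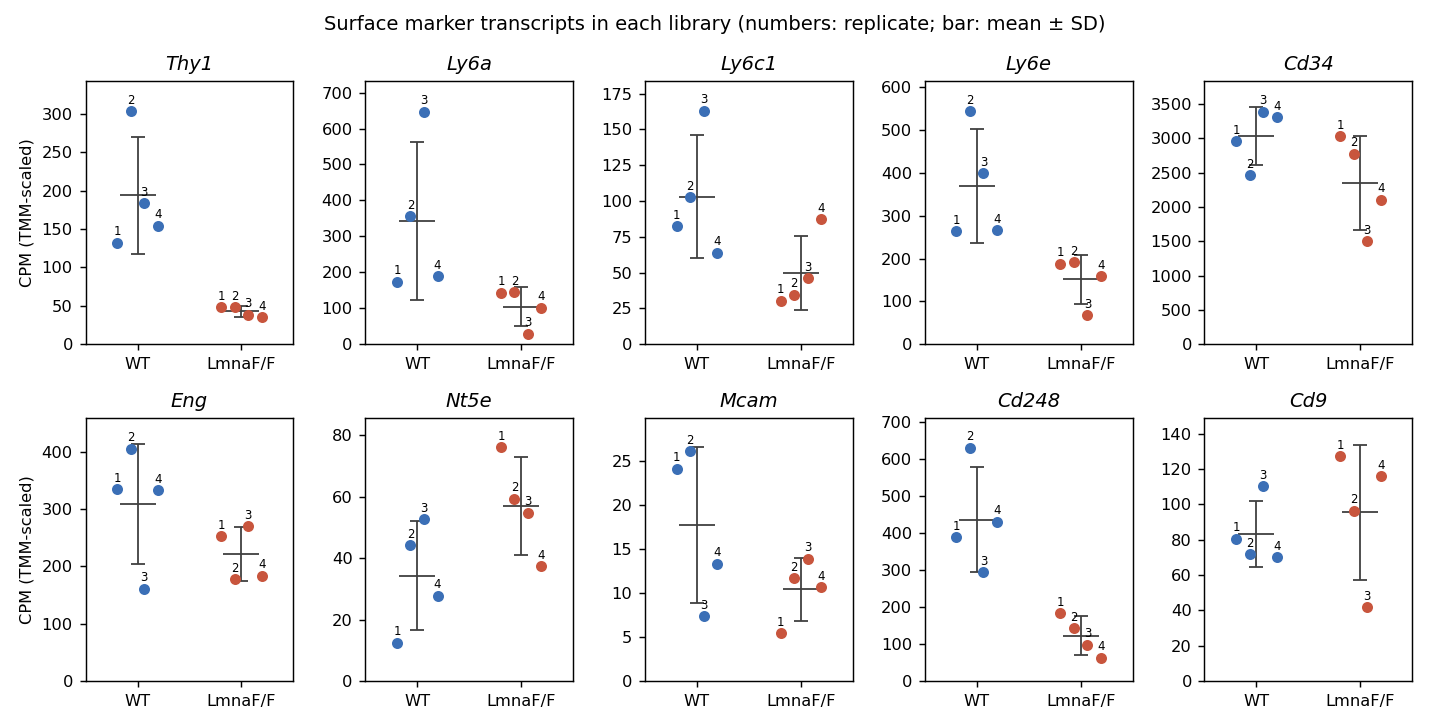
CPM of each surface marker in every library, in blue for WT and red for Pdgfra-Cre:LmnaF/F, with replicate numbers beside the points and bars for the mean and SD of 4 libraries. The groups do not overlap for Thy1, Ly6a, Ly6e and Cd248, Ly6c1 overlaps through LmnaF/F replicate 4, and the other genes overlap.

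Of the 9 other members, *Cd248* alone passed in edgeR, as lower in LmnaF/F libraries, which is 1 of 9 genes beside 0.407% of all genes tested. Limma-voom called *Cd248* too, beside 0.967% of all genes, and DESeq2 called *Cd248* and *Ly6e* as lower, beside 2.58% of the 11724 genes to which it gave an adjusted p. At an unadjusted p under 0.05 there were 4 of 9, all lower, beside 11.9% of all genes tested in either direction, 5.65% lower and 6.24% higher. The groups did not overlap for 3 of 9, all lower, beside 8.03% of all genes in either direction, 3.97% lower and 4.06% higher. Values below 0 on the log2 scale were found for 7 genes and values above 0 for *Nt5e* and *Cd9*, with a median of -0.75 beside 0.02 over all genes. The 95% interval excluded 0 for *Cd248*, *Ly6a*, *Ly6e* and *Ly6c1*. For the other 5 it included 0.

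**Figure D3:**
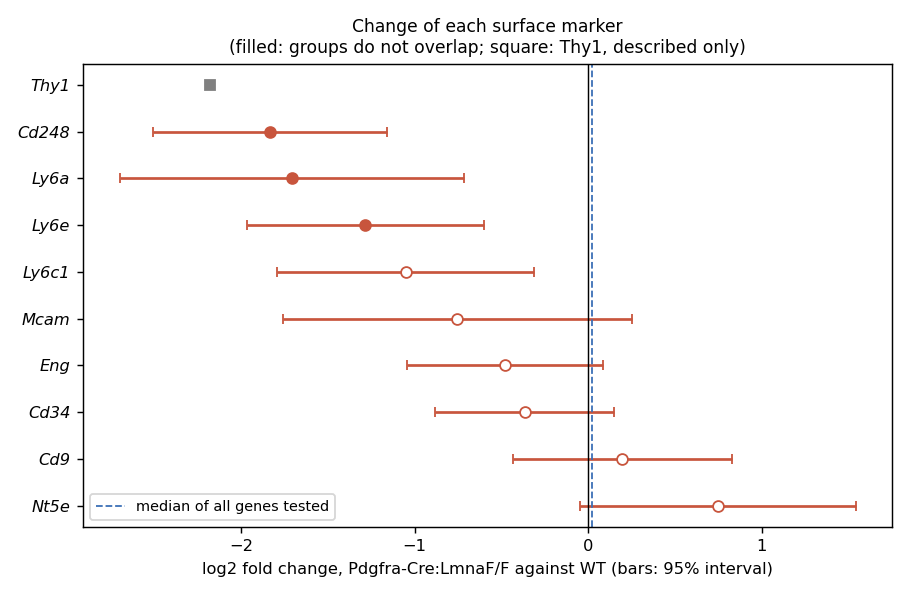
Log2 fold change of each surface marker in Pdgfra-Cre:LmnaF/F against WT libraries, with 95% intervals for the other 9 genes, in the order of the values. Filled points are genes whose groups do not overlap, the grey square is Thy1, which chose the set and is shown as a description with no interval, and the dashed line at 0.02 is the median of all genes tested. Intervals of Cd248, Ly6a, Ly6e and Ly6c1 lie below 0, and those of the other 5 include it.

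*Cd248* encodes endosialin, also called TEM1, a transmembrane glycoprotein of fibroblasts and pericytes that is abundant in growing tissue. Its level was 388, 630, 293 and 431 CPM in WT and 184, 143, 97.9 and 63.1 CPM in LmnaF/F replicates 1 to 4. No LmnaF/F library reached the lowest WT library, and the LmnaF/F mean was 28.0% of the WT mean. *Cd248* fell by 1.84 on the log2 scale (SE 0.32, 95% interval -2.51 to -1.16, adjusted p = 0.0255). It passed under all 9 other settings of the test, scaling and filter. The call was lost when WT replicate 2 (-1.61, adjusted p = 0.0685), WT replicate 4 (-1.84, 0.0523), LmnaF/F replicate 2 (-1.92, 0.0604) or LmnaF/F replicate 3 (-1.74, 0.108) was left out. Without LmnaF/F replicate 4, the library with cardiomyocyte transcripts, the value was -1.62 (adjusted p = 0.0192).

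None of the 3 Ly6 genes passed in edgeR, DESeq2 called *Ly6e*, and edgeR without a filter on low counts called all 3 as lower. *Ly6a*, which encodes Sca-1, was at 174, 357, 647 and 190 CPM in WT and at 144, 144, 29.3 and 102 CPM in LmnaF/F replicates 1 to 4. The groups did not overlap, but the gap between them was narrow, with WT replicate 3 the highest and LmnaF/F replicate 3 the lowest library. *Ly6a* had a log2 fold change of -1.71 (SE 0.46, 95% interval -2.70 to -0.71, adjusted p = 0.139). This value was -1.20 without WT replicate 3 and -1.39 without LmnaF/F replicate 3.

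*Ly6e*, a Ly6 gene with broad expression that also acts in resistance to some viruses, shared its lowest LmnaF/F library with *Ly6a*. It was at 264, 545, 400 and 266 CPM in WT and at 188, 192, 67.1 and 158 CPM in LmnaF/F replicates 1 to 4. The groups did not overlap, WT replicate 2 was highest and LmnaF/F replicate 3 lowest. For *Ly6e* the log2 fold change was -1.28 (SE 0.32, 95% interval -1.97 to -0.60, adjusted p = 0.116). DESeq2 gave an adjusted p of 0.00466 for *Ly6e* with nearly the same log2 fold change of -1.29, and over the 9 other settings of test, scaling and filter the adjusted p ran from 0.00201 to 0.132. Without WT replicate 2 it was -1.04 and without LmnaF/F replicate 3 it was -1.03.

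*Ly6c1* encodes one of the Ly-6C antigens, which are known from endothelial cells and from blood cells. Lineage cocktails often hold an antibody that binds Ly-6C, and the content of the cocktail used here is not given in the sources used here. *Ly6c1* was at 82.4, 103, 163 and 64.0 CPM in WT and at 30.4, 34.6, 46.3 and 87.2 CPM in LmnaF/F replicates 1 to 4. LmnaF/F replicate 4, the library highest in cardiomyocyte and myeloid markers, lay above 2 WT libraries, and the other 3 LmnaF/F libraries lay below all WT libraries. The difference amounted to -1.05 on the log2 scale (SE 0.35, 95% interval -1.79 to -0.31, adjusted p = 0.224), and without LmnaF/F replicate 4 it was -1.47 (adjusted p = 0.0411, and up to 0.415 when another library was left out).

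Across the 3 Ly6 members and *Ly6i*, which are the 4 annotated protein-coding genes in the 93.78 kb from *Ly6e* to *Ly6c1*, 3 were tested. Elsewhere in the Ly6 and urokinase receptor family, 7 of 28 listed genes were abundant enough to test and none passed in any of the 3 tools or had an unadjusted p under 0.05, with a median log2 fold change of 0.28. *Lynx1*, which binds nicotinic receptors, ranged from 49.3 to 236 CPM in WT and from 55.4 to 123 CPM in LmnaF/F libraries (log2 fold change -0.65, adjusted p = 0.559). *Cd59a*, an inhibitor of the complement attack complex, had a log2 fold change of 0.28 (adjusted p = 0.843).

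*Cd34*, the most abundant member, was spread across the genotypes. Its level was 2966, 2461, 3392 and 3308 CPM in WT and 3029, 2777, 1499 and 2106 CPM in LmnaF/F replicates 1 to 4. LmnaF/F replicates 1 and 2 lay within the WT range, and replicates 3 and 4 lay below it. *Cd34* had a log2 fold change of -0.37 (SE 0.24, 95% interval -0.88 to 0.15, adjusted p = 0.604). It was -0.20 without LmnaF/F replicate 3 and -0.52 without LmnaF/F replicate 1.

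*Eng* encodes endoglin, a co-receptor for BMP9 and TGF-beta ligands. It was at 335, 406, 161 and 333 CPM in WT and at 253, 178, 270 and 184 CPM in LmnaF/F replicates 1 to 4. WT replicate 3 was the lowest of all 8 libraries, and the other 3 WT libraries lay above all LmnaF/F libraries. The genotypes differed by -0.48 on the log2 scale (SE 0.26, 95% interval -1.04 to 0.08, adjusted p = 0.516), and it was -0.70 without WT replicate 3 and -0.33 without WT replicate 2. The overlapping gene *Fpgs*, a folate enzyme, had a log2 fold change of -0.34 (adjusted p = 0.780).

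Around endoglin, 17 genes of its receptors, SMAD proteins and targets were tested, with a median log2 fold change of 0.28. In edgeR 1 passed, limma-voom called 2 and DESeq2 called 3, all higher, beside 0.169%, 0.483% and 1.15% called higher among all genes. At an unadjusted p under 0.05 there were 5, all higher, beside 6.24% of all genes, and the groups did not overlap for 3, all higher, beside 4.06%. The gene called by all 3 tools was *Id1*, a BMP target that inhibits basic helix-loop-helix factors. It was at 31.8, 26.1, 32.0 and 34.6 CPM in WT and at 57.8, 77.9, 128 and 64.6 CPM in LmnaF/F replicates 1 to 4. *Id1* rose by 1.39 on the log2 scale (adjusted p = 0.0368), and *Id3*, a related target, had a log2 fold change of 1.47 (adjusted p = 0.0568 in edgeR), also without overlap. *Id3* was called in 7 of the 9 other settings, DESeq2 and limma-voom included, with adjusted p from 3.35e-06 to 0.0641. *Tgfbr1*, a type I receptor gene, was the third that DESeq2 called, and its log2 fold change was 0.83 (adjusted p = 0.138 in edgeR). The *Id1* call was kept in 8 of the 9 other settings and in 2 of the 8 fits that left out 1 library.

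*Mcam* encodes CD146, an adhesion molecule of pericytes and endothelium, and its level was low. It was at 24.1, 26.1, 7.33 and 13.3 CPM in WT and at 5.47, 11.6, 13.9 and 10.6 CPM in LmnaF/F replicates 1 to 4. WT replicates 1 and 2 were the highest libraries and the remaining 6 were mixed. Its log2 fold change was -0.75 with an interval of -1.76 to 0.25 (adjusted p = 0.583), and without WT replicate 2 it was -0.53.

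*Nt5e* and *Cd9* had log2 fold changes above 0. *Nt5e* encodes CD73, which turns AMP into adenosine, and it was at 12.5, 44.1, 52.7 and 27.8 CPM in WT and at 76.2, 59.4, 54.9 and 37.3 CPM in LmnaF/F replicates 1 to 4. LmnaF/F replicates 1 to 3 lay above all WT libraries and replicate 4 lay within them. For *Nt5e* the log2 fold change was 0.75 (SE 0.37, 95% interval -0.05 to 1.54, adjusted p = 0.457), and it ran from 0.46 without WT replicate 1 (adjusted p = 0.702) to 1.06 without WT replicate 3 (adjusted p = 0.296), and was 1.27 in limma-voom (adjusted p = 0.0951). Without LmnaF/F replicate 4 it was 0.91 and without WT replicate 2 it was 0.88. *Cd9* was at 80.6, 71.7, 110 and 70.2 CPM in WT and at 128, 96.5, 41.8 and 116 CPM in LmnaF/F replicates 1 to 4. LmnaF/F replicate 3 was the lowest and LmnaF/F replicate 1 the highest of the 8 libraries, and the log2 fold change was 0.20 (95% interval -0.43 to 0.83, adjusted p = 0.865). For *Cd9* it was 0.02 without LmnaF/F replicate 1, 0.45 without LmnaF/F replicate 3 and 0.09 without LmnaF/F replicate 4.

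Among 11 tested genes of adenosine metabolism and adenosine receptors other than *Nt5e*, none passed in edgeR or limma-voom, 10 had a log2 fold change below 0, and the median was -0.60. DESeq2 called 2 as lower, beside 1.43% of the genes it gave an adjusted p. At an unadjusted p under 0.05 in edgeR there were 3, all lower, beside 5.65% of all genes, and the groups did not overlap for 2, both lower, beside 3.97%. *Entpd2*, an ectonucleotidase that acts on extracellular ATP, had a log2 fold change of -0.65, and *Slc29a1*, the equilibrative nucleoside transporter ENT1, had -0.60, each with an adjusted p of 0.194 in edgeR and groups that did not overlap, and these were the 2 called by DESeq2. Of 24 tested tetraspanins other than *Cd9*, 1 passed in edgeR and limma-voom and 3 in DESeq2, beside 0.407%, 0.967% and 2.58% of all genes, and the median was -0.23. At an unadjusted p under 0.05 there were 4 lower and 2 higher, beside 5.65% and 6.24% of all genes, and the groups did not overlap for 4 lower and 1 higher, beside 3.97% and 4.06%. *Tspan4*, which is known from migrasomes, was called as higher by all 3 tools. *Tspan4* was at 52.4, 53.2, 64.8 and 53.0 CPM in WT and at 130, 98.1, 117 and 125 CPM in LmnaF/F replicates 1 to 4, and it rose by 1.07 on the log2 scale (adjusted p = 0.0316). The call was kept in 8 of the 9 other settings and in 3 of the 8 edgeR fits that left out 1 library. DESeq2 also called *Tspan13* and *Cd81* as lower. *Tspan13* had a log2 fold change of -1.65 (adjusted p = 0.159 in edgeR, 0.0294 to 0.425 over the other settings), and *Cd81*, a tetraspanin partner of CD9 singled out after its values were seen, had -0.63 (0.209, and 0.0131 to 0.351), both without overlap.

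Thy-1 and the Ly6 proteins share their GPI anchor, and genes of that pathway were read as a group. Of 31 genes that build and attach the anchor, all were tested and none passed in any of the 3 tools, and they had a median log2 fold change of -0.04. Below an unadjusted p of 0.05 were 2, both lower, and the groups did not overlap for 1, also lower, beside 5.65% and 3.97% of all genes. The lowest p among them belonged to *Pigt*, a subunit of the transamidase that attaches the anchor, with a log2 fold change of -0.80 (adjusted p = 0.364). Of 47 other GPI-anchored surface proteins tested, 1 passed in edgeR as lower and none as higher, beside 0.238% and 0.169% of all genes. Their median log2 fold change was -0.04. At an unadjusted p under 0.05 there were 7 lower and 1 higher, beside 5.65% and 6.24% of all genes, and the groups did not overlap for 3, all lower, beside 3.97%. The gene that passed was *Lsamp*, an IgLON adhesion protein, which was at 62.2, 29.1, 139 and 88.8 CPM in WT and at 18.8, 12.2, 17.8 and 7.73 CPM in LmnaF/F replicates 1 to 4. *Lsamp* fell by 2.51 on the log2 scale (SE 0.42, adjusted p = 0.0221), and the groups did not overlap. It passed in 5 of the 8 fits that left out 1 library.

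Of 14 tested integrin ligands and signalling partners of Thy-1, none passed in any of the 3 tools, and the median log2 fold change was -0.19. An unadjusted p under 0.05 was found for 2, both lower, and groups without overlap for 1, also lower, beside 5.65% and 3.97% of all genes. *Csk*, the kinase that restrains Src family kinases, had a log2 fold change of -0.86 (adjusted p = 0.256), and *Adgre5*, which encodes the Thy-1 ligand CD97, had -0.88 (adjusted p = 0.277). Of 33 other mesenchymal surface markers tested, 1 passed in edgeR as higher, *Lepr*, the leptin receptor gene, and none as lower. The shares called among all genes were 0.169% higher and 0.238% lower. The median log2 fold change of the list was -0.10. Unadjusted p-values under 0.05 were found for 3 lower and 2 higher genes, beside 5.65% and 6.24% of all genes, and groups without overlap for 2 lower and 1 higher, beside 3.97% and 4.06%. *Lepr* was at 295, 239, 242 and 267 CPM in WT and at 484, 426, 732 and 954 CPM in LmnaF/F replicates 1 to 4, and it rose by 1.31 on the log2 scale (adjusted p = 0.0368). It passed in 8 of the 9 other settings and in 3 of the 8 fits that left out 1 library. *Mme*, which encodes the peptidase CD10, had a log2 fold change of -0.97 (adjusted p = 0.226, and 0.0410 to 0.234 over the other settings).

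Sca-1, CD34 and Thy-1 are known from fibroblasts of the vessel adventitia, and a list of 11 other adventitial fibroblast genes was read beside them. Of these, *Dpp4* and *Cd55* are also on the list of other mesenchymal surface markers. The summed level of the list was 4427, 3949, 5016 and 4859 CPM in WT and 2764, 2885, 1524 and 2994 CPM in LmnaF/F replicates 1 to 4. No LmnaF/F library reached the WT range, and LmnaF/F replicate 3, the lowest for *Ly6a*, *Ly6e*, *Cd34* and *Cd9*, was lowest here as well. Sums without overlap, all lower, were not particular to this list. The other tetraspanins summed to 2356 to 2614 against 1661 to 2273 CPM and the Thy-1 partners to 1750 to 2018 against 1326 to 1688 CPM. The adenosine genes summed to 816 to 967 against 525 to 712 CPM. The sums of the remaining lists of other genes overlapped. Of the 11 genes, edgeR called 1, DESeq2 2 and limma-voom 3, all lower, beside 0.238%, 1.43% and 0.483% called lower among all genes with an adjusted p in each tool. At an unadjusted p under 0.05 there were 5, all lower, beside 5.65% of all genes, the groups did not overlap for 3, all lower, beside 3.97%, and 10 had a log2 fold change below 0, with a median of -0.56. *Efhd1*, which encodes a mitochondrial calcium-binding protein, fell by 1.98 on the log2 scale (adjusted p = 0.0368) and passed in 3 of the 8 edgeR fits that left out 1 library. *Ackr3*, a scavenging chemokine receptor, had a log2 fold change of -1.25 (adjusted p = 0.0833 in edgeR, 0.000694 to 0.0860 over the other settings) and was called by DESeq2 and limma-voom. *Pi16*, a marker of adventitial progenitors that was singled out after its values were seen, had -1.51 (adjusted p = 0.134 in edgeR, 0.00162 to 0.143 over the other settings) and was called by limma-voom. The part of the share of adventitial cells in the levels of *Thy1*, *Cd248*, *Ly6a* and *Ly6e* was not tested.

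Markers of other cells that use these surface genes were read in the same libraries. The summed level of 10 endothelial markers was 834, 597, 771 and 783 CPM in WT and 480, 471, 512 and 629 CPM in LmnaF/F replicates 1 to 4, which overlapped through WT replicate 2 and LmnaF/F replicate 4. None of the 10 passed in edgeR or limma-voom, and their median log2 fold change was -0.37. DESeq2 called 1 as lower (*Tek*, an angiopoietin receptor gene), beside 1.43% of the genes it gave an adjusted p. Of the 10, 2 had an unadjusted p under 0.05 and 2 had groups without overlap, all lower, beside 5.65% and 3.97% of all genes. *Pecam1* was at 49.7 to 68.0 CPM in WT and at 17.4 to 52.9 CPM in LmnaF/F libraries, and *Cdh5* at 40.6 to 62.6 against 8.11 to 38.2 CPM. The part of endothelial transcripts in the levels of *Ly6c1*, *Ly6a*, *Eng*, *Mcam* and *Cd34* was not tested. The 8 mural cell markers, of which 7 were tested and none passed or had an unadjusted p under 0.05, summed to 260 to 423 CPM in WT and 216 to 573 CPM in LmnaF/F libraries. None of 8 cardiomyocyte markers and none of 7 tested myeloid markers passed in any of the 3 tools, and 1 of each had an unadjusted p under 0.05, as higher, beside 6.24% of all genes. Lymphoid markers, which bear on *Thy1* because T cells carry Thy-1, summed to 2.99 to 10.8 CPM in WT and 4.74 to 14.7 CPM in LmnaF/F libraries, with *Cd3e* at 0 counts in all 4 LmnaF/F libraries and in 2 WT libraries. The 6 mesothelial markers summed to 10.8 to 43.1 against 6.65 to 16.9 CPM. The 7 listed glial and neuronal markers summed to 14.0 to 25.6 against 11.5 to 33.2 CPM. Not every gene of these lists was abundant enough to test. Tested were 1 of 10 lymphoid, 5 of 6 mesothelial and 4 of 8 glial and neuronal genes, and none of these passed in any of the 3 tools or had an unadjusted p under 0.05. All 5 tested mesothelial genes had log2 fold changes below 0, with a median of -1.14, and overlapping groups.

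**Figure D4:**
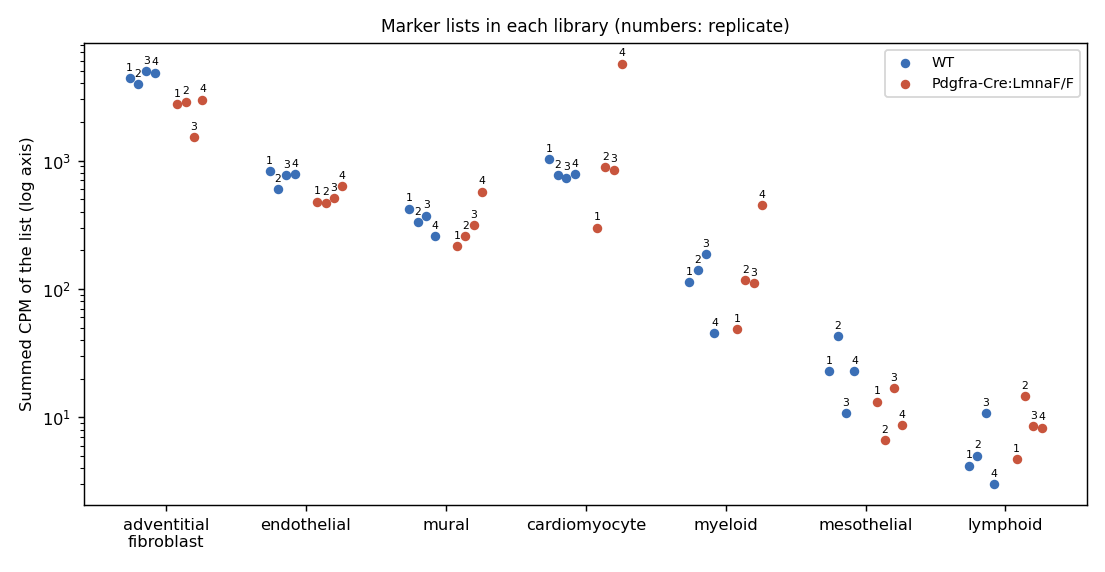
Summed CPM of each marker list in every library on a log axis, in blue for WT and red for Pdgfra-Cre:LmnaF/F, with replicate numbers above the points. The adventitial fibroblast list does not overlap between genotypes (3949 to 5016 against 1524 to 2994 CPM), and LmnaF/F replicate 4 stands apart at 5693 CPM for cardiomyocyte and 449 CPM for myeloid markers.

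Within the genotypes, the members did not all rise and fall together from library to library. After each genotype was centred on its own mean, the correlation over the 8 libraries was 0.892 between *Ly6a* and *Ly6e*, and 0.730 to 0.978 when 1 library was left out. *Ly6a* and *Cd9* followed with 0.854, and *Cd34* and *Cd9* with 0.802, although the latter was 0.332 without LmnaF/F replicate 3. Values below 0 were found for 16 of the 45 pairs. The lowest was that of *Ly6c1* and *Cd248*, at -0.77 and -0.92 to -0.56 when 1 library was left out, followed by *Cd34* and *Mcam* at -0.66, and -0.79 to -0.52. For *Thy1* the highest value within the set was that with *Nt5e*, at 0.738, followed by *Ly6e* at 0.679 and *Cd248* at 0.652. These values describe 8 libraries that differ in depth and in cell content, and *Nt5e* has a log2 fold change of the opposite sign.

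Over all 8 libraries without centring, where the genotype difference enters the measure, *Cd248* had the pattern most like that of *Thy1* within the set. Its Pearson correlation with *Thy1* was 0.936, and genes lower in LmnaF/F libraries score high on this measure because the *Thy1* difference enters it. *Ly6e* had 0.872 and *Ly6a* 0.780, *Cd9* had -0.08 and *Nt5e* -0.36. Among 9631 genes with a mean log2 CPM of at least 3, the 5 genes most like *Thy1* were *Rnf41*, a ubiquitin ligase gene, at 0.978, *Lmf1*, a lipase maturation factor, at 0.976, *Igf1*, the growth factor gene, at 0.974, *Cdc42se1* at 0.972 and *Col4a4*, a type IV collagen chain, at 0.970. Their log2 fold changes were -0.44, -1.01, -0.65, -0.55 and -2.31 in the same order. After centring, the 4 genes most like *Thy1* were *Rab13* at 0.986, *Socs2* at 0.969, *Cd44* at 0.935 and *Col18a1* at 0.916, each with overlapping groups. Like *Thy1*, all 4 had their highest WT level in the shallow WT replicate 2. *Socs2*, for example, was at 216 CPM there and at 95.8 to 126 CPM in the rest of WT. The part of this library in the centred values was not tested.

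The genes near *Thy1* on chromosome 9 were read to see whether they shared its level. Of the protein-coding genes that start within 250 kb, 7 besides *Thy1* were tested and none passed. Among all genes 0.407% passed, a share at which 7 genes would usually hold no call. *C1qtnf5*, *Gm49380* and *Ccdc153* also start there but are not among the genes listed. The smallest unadjusted p among them was 0.130, that of *Mcam*. *Usp2*, a deubiquitinase gene whose start is 23.6 kb away, had a log2 fold change of 0.14 (95% interval -0.66 to 0.95), and *Cbl*, a ubiquitin ligase gene 190.7 kb away, had 0.02 (-0.46 to 0.51). The interval of *Nlrx1* was -1.20 to 0.55, around a log2 fold change of -0.33. *Mfrp*, *Rnf26* and *Abcg4* had at most 7.33 CPM in any library and log2 fold changes of 0.17, -1.15 and -0.02, with wide intervals around 0. *Pdzd3* had too few counts to be tested.

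**Figure D5:**
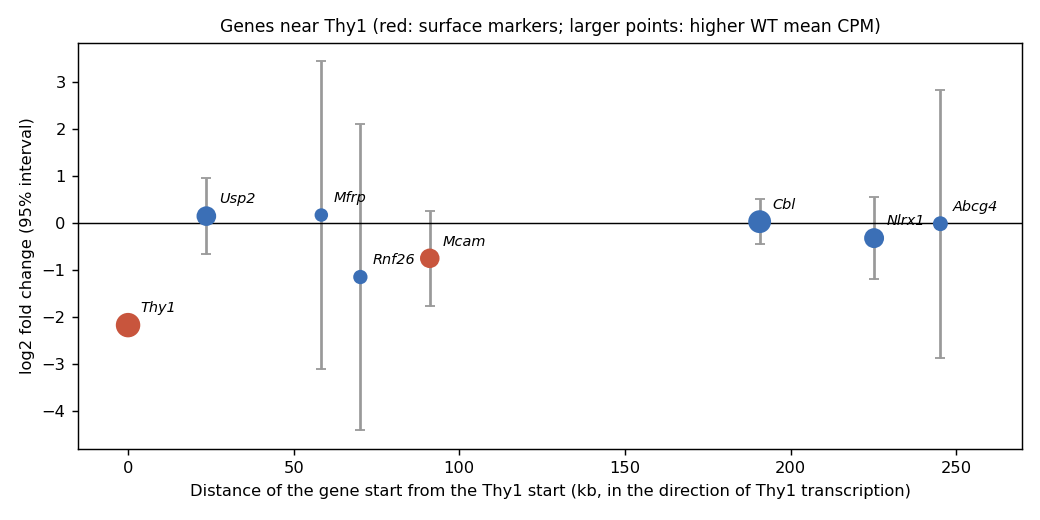
Log2 fold change, with 95% interval except for Thy1, of the genes within 250 kb of the Thy1 start, against the distance between starts in kb, with larger points for a higher WT mean CPM and red for surface markers. Thy1 at -2.18 lies below its neighbours, and the wide intervals of Mfrp, Rnf26 and Abcg4 belong to genes of at most 7.33 CPM.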

How the data were processed

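RNA of sorted PDGFRA-positive ventricular fibroblasts was measured in 4 WT and 4 Pdgfra-Cre:LmnaF/F libraries, grouped by the sample titles. RNA with a RIN above 8 was depleted of ribosomal RNA, and 150 bp paired-end reads were aligned to mm10 with HISAT2. The authors counted reads on GENCODE genes with featureCounts and deposited whole-number counts per gene symbol, unscaled. RUV normalization and DESeq2, which the study names, are not part of the deposited counts. The files list 18957 genes, each with at least 4 counts in all. Totals per library are 2080555 to 12502949, and depth limits counting error only.

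The main test was that of edgeR 4.0.16 in R 4.3.3 (TMM factors, filterByExpr, quasi-likelihood test on genotype, Benjamini-Hochberg adjustment over 13036 genes, called at 0.05). Intervals are 95%, from the fitted log2 fold change and its SE. Exon lengths, loci and coding sequences came from GENCODE M21, which holds 18918 of the symbols. Correlations used log2 CPM with a prior count of 2.

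The members and lists were chosen with earlier results of these data known. Named genes are the members, *Lmna*, those called in each list, or the 2 with the lowest p where fewer than 2 were called, the 5 most like *Thy1* before and after centring, genes within 250 kb of *Thy1* and defining markers of other cells, of which 1 gene is not reported here. *Tgfbr1* and *Tek* were named after their values were seen. The script was tested on simulated counts. The alternatives tried were DESeq2 1.42.0, voom of limma 3.58.1 with sample weights, upper-quartile or RLE scaling, 2 other filters, 1 RUVr factor in edgeR or DESeq2, a replicate block, and leaving out each library. The study's RUV variant is not given in the sources used here.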

Additional observations from a re-analysis of the deposited data

Results flagged for a closer look

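In 118 groups of 4 libraries, formed by the named genes in each genotype, 6 had a highest or lowest library far from the other 3 by the test of Dixon. Chance gives such a gap in about 1 in 20 groups. No surface marker of the set was among them. *Tspan4* was at 64.8 CPM in WT replicate 3 and at 52.4 to 53.2 CPM in the other 3 WT libraries, and *Tspan13* was at 7.92 CPM in LmnaF/F replicate 3 and at 5.65 to 5.98 CPM in the other 3. *Lmf1*, which resembles *Thy1*, was at 51.7 CPM in WT replicate 2 against 35.0 to 37.1 CPM, and at 16.3 CPM in LmnaF/F replicate 3 against 20.4 to 21.2 CPM. Both remaining cases were cardiomyocyte genes in LmnaF/F replicate 4, *Myh6* at 2040 CPM against 97.3 to 271 CPM and *Tnnt2* at 428 CPM against 21.2 to 32.7 CPM.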

How the results depend on the processing

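The direction of the log2 fold change of all 10 members was the same under every alternative, and the levels per kb in WT moved by less than 1 SD. RLE factors, upper-quartile factors, a filter of 10 counts in every library and 1 RUVr factor in edgeR left 1 of the 9 members other than *Thy1* called. DESeq2 called 2 of the 9, 303 genes of the table and 13 genes of the lists, against 1, 53 and 5 in edgeR. DESeq2 with 1 RUVr factor called 2, 458 and 16, and no filter called 4 (*Cd248*, *Ly6a*, *Ly6e* and *Ly6c1*), 274 and 9. Limma-voom called 126 and 8 of the table and the lists, and 1 RUVr factor in edgeR called 83 of the table. Leaving out 1 library gave 0 to 2 members, 13 to 76 genes of the table and 0 to 7 of the lists, with 0 members without WT replicate 2 or 4 or LmnaF/F replicate 2 or 3. Of the 9 members, 3 had groups without overlap, and 3 to 5 when 1 library was left out, beside 8.03% of all genes and 10.5% to 13.7% without 1 library. The 5 were found without LmnaF/F replicate 4, with *Ly6c1* as lower and *Nt5e* as higher added. The cause of these moves was not tested. Same-numbered libraries did not deviate together (correlations of -0.027, -0.030, -0.004 and 0.040), and 1 of 4 numbers matched best with itself. The replicate block called 1 member, 36 genes of the table and 3 of the lists, without *Id1*, *Tspan4* and *Lepr*, whose adjusted p reached 0.0764. The shallow WT replicate 2 limits what can be read of low genes. *Mcam* had 52 counts there, but was as low in WT replicate 3, at 46, and in LmnaF/F replicate 1, at 53 counts.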
